A study of Drosophila melanogaster with 9 samples.

Results

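The Wnt pathway genes of the Drosophila ovary described here are 10 genes chosen by name for their place in the pathway, out of 17024 gene IDs counted in the series. They are the ligands Wnt4 and Wnt6, the receptors fz, fz2 and fz3, the co-receptor arr, the cytoplasmic proteins arm, sgg and Axn, and the feedback inhibitor nkd. The choice was made by name and not by a level or fold change, although earlier results of these data were known when it was made. Their mRNA was counted in 9 poly(A) RNA-seq libraries from ovaries dissected 1 to 3 days after eclosion. All flies carried the aramis::GFP::FLAG transgene, so no library comes from ovaries without the tagged protein. In RNA immunoprecipitation an antibody pulls a protein out of a lysate and the RNA that comes with it is sequenced. Input (3 libraries) was 10% of that lysate, IgG (3 libraries) was the control pulldown with mouse IgG, and IP (3 libraries) was the pulldown with anti-FLAG. The labels and the series title name aramis as the tagged protein, whereas the design text names Larp, and the sample labels were followed. The control pulldown gives the background that RNA leaves without the FLAG antibody, and Input gives the level in the lysate. Replicates are numbered 1 to 3 in each group, but nothing says that they came from separate flies or lysates, so p-values measure only the spread between these samples.

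In the canonical Wnt pathway a secreted Wnt ligand binds a Frizzled receptor together with the co-receptor Arrow, and this stops a complex of Axin, Apc and the GSK3 kinase Shaggy from marking Armadillo, the fly β-catenin, for destruction. Armadillo then enters the nucleus and activates target genes, among them inhibitors of the pathway itself. In the germarium, where germline stem cells reside, Wnt ligands from the somatic niche signal to escort cells, which wrap the differentiating germ cells, and the pathway also acts in follicle cells.

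The libraries held 30533376 to 47080956 counts, so that 3 counts, the floor used for a count of 0, corresponded to 0.0637 to 0.0983 CPM (counts scaled by library total). IgG libraries detected 7805 to 7929 genes with a count, IP libraries 9700 to 9985 and Input libraries 10966 to 11205. A single feature with the ID FBgn000003 took 5.889% to 14.603% of counts in IgG and at most 1.0403% elsewhere. The summed level of 8 germline markers was 3685 to 3914 CPM in Input, 3488 to 3844 in IgG and 3621 to 4246 in IP, with all 8 detected in every group, as the ovary label implies. The 7 follicle cell markers summed to 11986 to 12504 CPM in Input and to more in both pulldowns, with 20660 to 22188 in IgG and 19229 to 19951 in IP. Most of that sum was Yp1, Yp2, Yp3 and Vm26Aa, and Yp3 alone of the 7 had a lower mean in IP (936.2 CPM) than in Input (1018). Muscle markers stood apart: their sum was 206.2, 149.7 and 99.9 CPM in Input replicates 1, 2 and 3, against 2391, 2773 and 422.3 in IgG and 873.1, 359.4 and 120.5 in IP. Each of the lists for fat body, hemocytes, gut and neurons summed to at most 109.3 CPM in any library, and Fbp1, eater, nSyb, brp, alphaTry, betaTry and Jon65Aiii of these lists were at 0 in all IgG libraries. Of these, Fbp1, alphaTry, betaTry and Jon65Aiii were also at 0 in all IP libraries and betaTry in all Input libraries. Their Input means were at most 0.2064 CPM (brp).

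Levels are given as CPM scaled by TMM, which corrects for differences in library composition, and a gene was called different between a pair of groups when edgeR's quasi-likelihood test gave a Benjamini-Hochberg adjusted p below 0.05 over all 8789 genes tested. Of the 10 genes 9 passed the filter on low counts, and Wnt6 did not. Between IP and Input 4 of the 9 were called higher in IP (fz3, arr, arm and nkd) and 2 lower (fz and Axn). Over all genes tested 59.2% were called in that comparison, 28.5% higher and 30.8% lower, so calls were common among all genes. Between IP and IgG only fz3 was called, and it was higher in IP, while over all genes 7.96% were called, 4.77% higher and 3.20% lower. IgG differed from Input in 4 of the 9, with fz2 and nkd higher and fz and Axn lower, against 26.9% of all genes called, 10.3% higher and 16.6% lower. The biological coefficient of variation, edgeR's measure of scatter within groups, was 0.15 for IP over Input. It was 0.596 for IP over IgG and 0.546 for IgG over Input, so fewer calls with IgG need not mean smaller differences. The one member called higher in IP against Input and against IgG was fz3, as were 4.13% of all genes tested. The median log2 fold change of the 9 was 0.39 for IP over Input, 0.19 for IP over IgG and 0.12 for IgG over Input, and over all genes tested the medians were 0.01, 0.03 and -0.01.

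**Figure D1:**
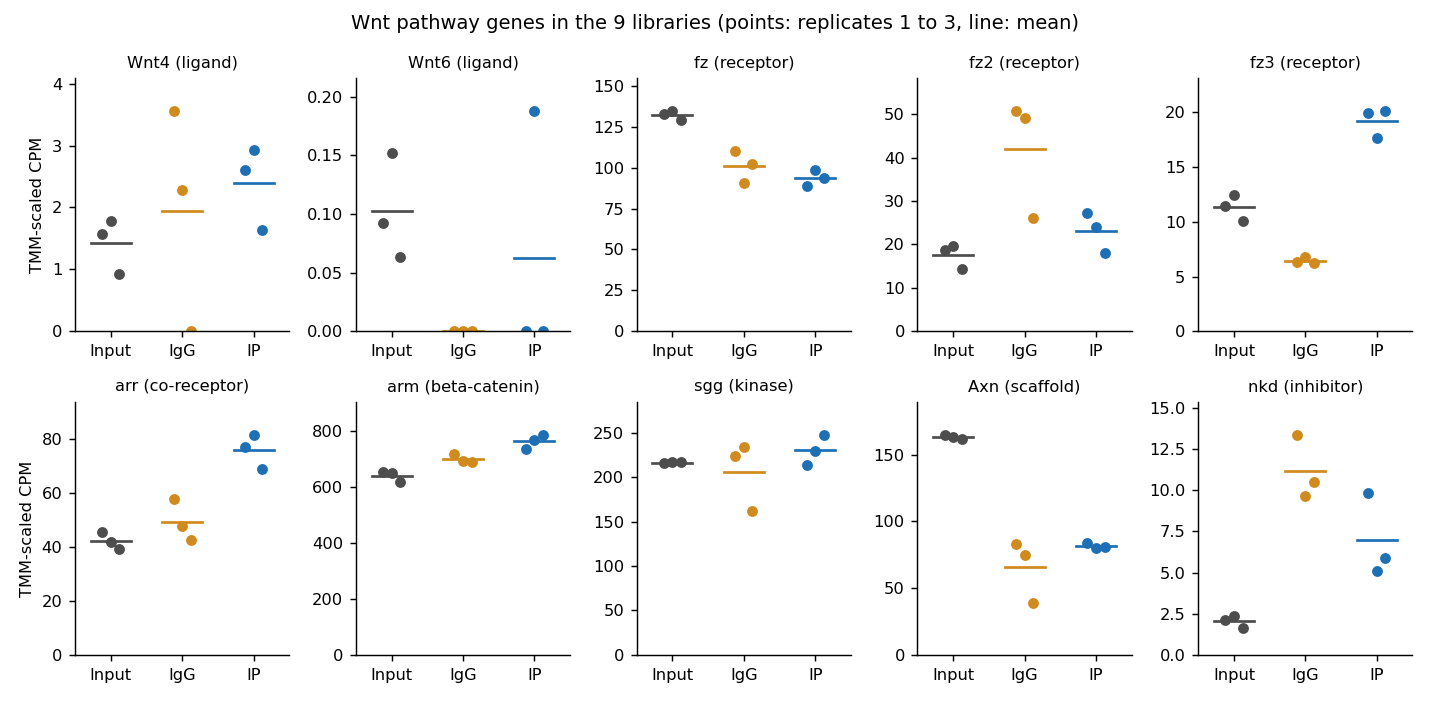
TMM-scaled CPM of each of the 10 Wnt pathway genes in the 9 libraries, with 1 panel per gene, points from left to right for replicates 1 to 3 and a line at the mean of 3. Only fz3 has its IP points above all Input points and its IgG points below them, while Axn has both pulldowns below Input.

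Levels per kilobase of merged exons allow only a rough comparison between genes. On that scale the ligands and nkd were the rarest of the 10 mRNAs in the lysate and arm the most abundant. Merged exons can exceed any annotated mRNA: they span 12499 bases in sgg and 7422 in fz2, whose longest mRNAs have 5004 and 5696. The places of these genes in the order depend on that length. In Input the mean level was 179.6 CPM per kilobase for arm, 34.68 for fz and 32.78 for Axn. It was 17.3 for sgg, 7.017 for arr, 3.045 for fz3 and 2.371 for fz2. Wnt4 followed with 0.4236, nkd with 0.404 and Wnt6 with 0.03598 CPM per kilobase. Wnt4 and nkd were the only neighbours in that order whose 3 Input values overlapped. In these whole-ovary lysates, fewer cells of a type and less RNA per cell cannot be told apart. Order changed in the pulldowns: sgg stood above Axn in both, nkd passed fz3 in IgG (2.206 against 1.733 CPM per kilobase), and in IP fz3 reached 5.165. In IgG the values of sgg and Axn, of Axn and arr, and of Wnt4 and Wnt6 overlapped, and in IP no neighbours did.

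**Figure D2:**
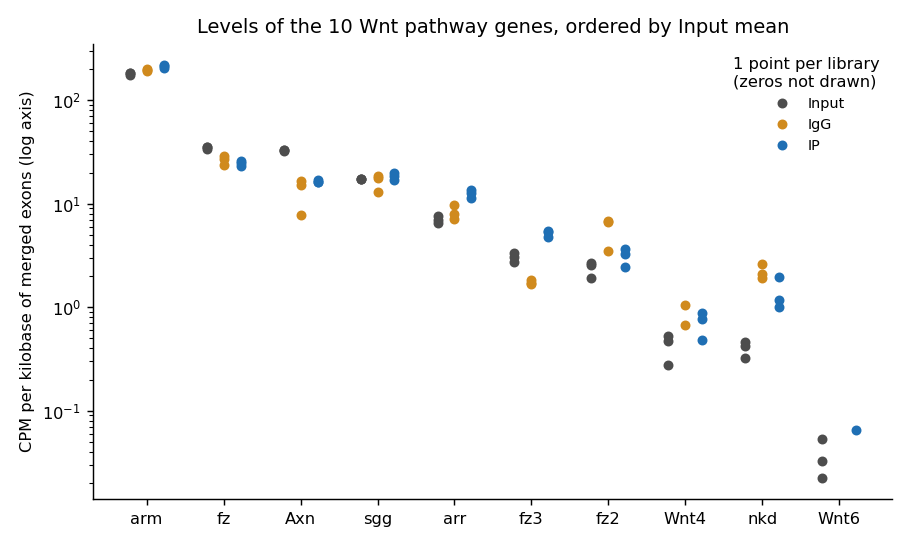
Level of each gene per kilobase of merged exons (CPM per kilobase, log axis), 1 point per library, with genes ordered by their Input mean. The levels run from 179.6 for arm to 0.03598 for Wnt6 in Input, and libraries in which Wnt4 or Wnt6 had no count are not drawn.

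The first bases of the member mRNAs were read from the RefSeq fly genome (Release 6, dm6) at the transcript starts annotated by Ensembl. They describe the annotated genes and not the RNA recovered in a pulldown. Each window holds 15 bases before the start in lower case and the first 15 transcribed bases in capitals. Windows are shown for genes called in a comparison other than arr, whose window is not printed here, and for Wnt4. Not every start of a gene is shown. The inner starts shown for arm and fz3 hold a motif described below, whereas the outermost starts of these genes hold neither motif. The outermost start of arm is not printed.
Wnt4 (chr2L:7277157-7277186, minus strand): tgtcgatgattcagaTTCAGTCGAGTGCCG
fz (chr3L:14274328-14274357, plus strand): cccatgttttcagttCCTCAGTTTGTCAGC
fz2, outermost start (chr3L:19235359-19235388, minus strand): gaaaagtcggaagaaAGTCAGTTGGCAAGT
fz3, outermost start (chrX:769930-769959, plus strand): ccatatattcatatcGATACCTGGCTGCTC
fz3, next start (chrX:770011-770040, plus strand): ttgagtgtcggtggtTCAGTTTGTTGGAAA
arm, a start inside the gene (chrX:1899596-1899625, minus strand): ggccctttactttctCTCCCAGTCTCTTTC
Axn, outermost start (chr3R:30022827-30022856, plus strand): aggcgagctatcgaaCCAGTTCGATTTCGA
nkd (chr3L:19045435-19045464, minus strand): ctcgaacgactcgcaTTCAGATTGTTTTCG

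The letters TCAGT, the core of the initiator element found at many fly transcription starts, were in a window of 6 of the 10 genes (Wnt4, fz, fz2, fz3, arr and sgg) when read on the transcribed strand. Among all 8251 tested coding genes 19.9% had them, and among 78 cytoplasmic ribosomal protein genes 2.56% did. The 10 genes have 28 annotated starts, 2.8 per gene against 1.56 over all tested coding genes, which gives them more windows in which to match. Counted per start, 28.6% of the members' windows and 14.7% of all windows held the letters. On the opposite strand they were in none of the members' windows and in 3.56% of tested coding genes. A start with C followed by at least 4 pyrimidines, the form known from ribosomal protein mRNAs, was found at the annotated first base of 1 of the 10, arm, whose first transcribed bases are CTCCC at the start shown. That form was at the first base of 1.62% of tested coding genes and of 19.2% of ribosomal protein genes. Allowing 5 bases to either side, arm and sgg had it among the 10, as did 13.3% of tested coding genes and 88.5% of ribosomal protein genes. No window printed here held both motifs, and a match is a description of the letters only.

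Both ligands had low levels, and Wnt6 was near the floor of 3 counts. Wnt4 (FBgn0010453, 2L 7255419 to 7277171 on the minus strand) encodes a Wnt ligand known to be made by niche cells of the germarium. Its level was 1.572, 1.775 and 0.9324 CPM in the Input libraries, 3.553, 2.278 and 0 in the IgG libraries and 2.604, 2.931 and 1.634 in the IP libraries. IgG replicates 1 and 2 were above every Input value, whereas IgG replicate 3 had 0 counts, which allows up to 0.0651 CPM of its total, and the IP range met the Input range. The 6 markers of escort and cap cells summed to 379.0 to 399.6 CPM in Input, 328.9 to 500.6 in IgG and 362.1 to 390.8 in IP, with en at 0 in all IgG libraries. Most of that sum was fax, with a mean of 361.4 CPM in Input, which was called lower in IP than in Input (log2 -0.22). The other 3 of the 4 tested were called higher in that comparison (ptc 1.43, Con 1.41 and Mmp2 1.09 on the log2 scale), and the list median was 1.25. Over all genes tested 28.5% were called higher there. The part of these markers in the Wnt4 values was not tested. No difference was called by edgeR: log2 fold changes were 0.74 (SE 0.39, adjusted p = 0.134) for IP over Input, 0.33 (adjusted p = 0.939) for IP over IgG and 0.44 (adjusted p = 0.892) for IgG over Input. Leaving out IgG replicate 3 turned the IP over IgG value to -0.25, and leaving out IP replicate 3 brought the IP over Input value to 0.95 with an adjusted p of 0.0483. Wnt6 (FBgn0031902, 2L 7333714 to 7352542, plus strand), its neighbour in the same cluster of Wnt genes, had 4, 6 and 3 counts in Input, 0 in every IgG library and 0, 8 and 0 in IP. With so few counts Wnt6 was neither tested nor given a fold.

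Among the receptors fz was lower than Input in both pulldowns, fz2 was higher in IgG, and fz3 was higher in IP than in the lysate or the control pulldown. The gene fz (FBgn0001085, 3L 14274343 to 14368639, plus strand) encodes Frizzled, a receptor in canonical signalling and in planar cell polarity. Its level was 133.2, 134.5 and 129.4 CPM in the Input libraries, 110.2, 90.89 and 102.3 in the IgG libraries and 88.6, 98.74 and 94.02 in the IP libraries. Every pulldown library was below every Input library, and IP overlapped IgG. In IP fz fell by 0.50 on the log2 scale against Input (SE 0.06, adjusted p = 4.9e-05) and in IgG by 0.39 (SE 0.10, adjusted p = 0.0305), whereas IP over IgG was -0.08 (adjusted p = 0.761). The IgG call for fz was absent after correction for exon length (-0.01, adjusted p = 0.939) and without any 1 of the Input libraries (-0.41 to -0.38, highest adjusted p 0.143).

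The second Frizzled receptor, fz2 (FBgn0016797, 3L 19140975 to 19235373, minus strand), binds Wingless, the best studied fly Wnt. Its level was 18.77, 19.67 and 14.35 CPM in the Input libraries, 50.67, 49.14 and 26.03 in the IgG libraries and 27.25, 23.96 and 18.11 in the IP libraries. All IgG values were above all Input values, IgG replicate 3 lay within the IP range, and replicate 3 was the lowest library of each group. In IgG fz2 rose 2.376-fold over Input (log2 1.25, SE 0.30, adjusted p = 0.0261), a call lost without IgG replicate 1 or 2 or any Input library (log2 1.09 to 1.34, adjusted p from 0.0518 to 0.105) and present without IgG replicate 3 (adjusted p = 0.00775). For IP over Input the log2 fold change was 0.39 (SE 0.17, adjusted p = 0.0739). With the replicate number as a block, since same-numbered Input and IP libraries deviated together, it was 0.38 and called (adjusted p = 0.00799), and without IP replicate 3 it was 0.54 (adjusted p = 0.00953). It was 0.26 without IP replicate 1 (adjusted p = 0.233), and the block together with exon length correction gave 0.15 with no call (adjusted p = 0.254). IP over IgG was -0.83 (SE 0.31, adjusted p = 0.121), and without IgG replicate 3 it was -1.08 and called (adjusted p = 0.038). Summed muscle markers were also lowest in replicate 3 of every group and moved in the same order as fz2 within IP. In IgG and in Input, replicates 1 and 2 ranked the other way round for the muscle sum than for fz2. The part of muscle markers in the fz2 values was not tested.

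The gene fz3 (FBgn0027343, X 769945 to 784222, plus strand) encodes a Frizzled with weaker signalling activity that is itself a known target of Wingless. Its level was 11.46, 12.5 and 10.09 CPM in the Input libraries, 6.348, 6.796 and 6.233 in the IgG libraries and 19.99, 17.66 and 20.1 in the IP libraries. The groups did not overlap in any pair: IgG was lowest, Input intermediate and IP highest. These levels rested on 476 to 496 counts per library in Input, 182 to 266 in IgG and 753 to 898 in IP. In IP fz3 rose by log2 0.76 over Input (SE 0.12, adjusted p = 0.000494) and by 1.60 over IgG (SE 0.33, adjusted p = 0.0209), a 3.034-fold difference. By same-numbered libraries the log2 ratio of IP to IgG was 1.66, 1.38 and 1.69, and that of IP to Input 0.80, 0.50 and 0.99. IgG over Input was -0.82 (SE 0.35, adjusted p = 0.137). Both IP comparisons share the IP libraries. The call over IgG was absent without any 1 IP library (log2 1.57, 1.66 and 1.58 without replicates 1, 2 and 3, adjusted p from 0.152 to 0.163) and after exon length correction (1.32, adjusted p = 0.0765).

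The co-receptor arr (FBgn0000119, 2R 13453640 to 13483229, minus strand) encodes Arrow, the fly LRP5/6. Its level was 45.53, 41.8 and 39.48 CPM in the Input libraries, 57.92, 47.8 and 42.65 in the IgG libraries and 77.08, 81.56 and 69.06 in the IP libraries. All 3 IP libraries were above the other 6, and Input and IgG overlapped. In IP arr rose 1.79-fold over Input (log2 0.84, SE 0.08, adjusted p = 1.66e-05). IP over IgG was 0.65 (SE 0.17, adjusted p = 0.0583) and IgG over Input 0.22 (adjusted p = 0.381). The IP over IgG value passed the threshold in DESeq2 (0.61, adjusted p = 0.017), with all 9 libraries in one fit (0.62, adjusted p = 0.0135) and without IgG replicate 1 (0.74, adjusted p = 0.0293), and it was 0.23 (adjusted p = 0.48) after exon length correction.

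**Figure D3:**
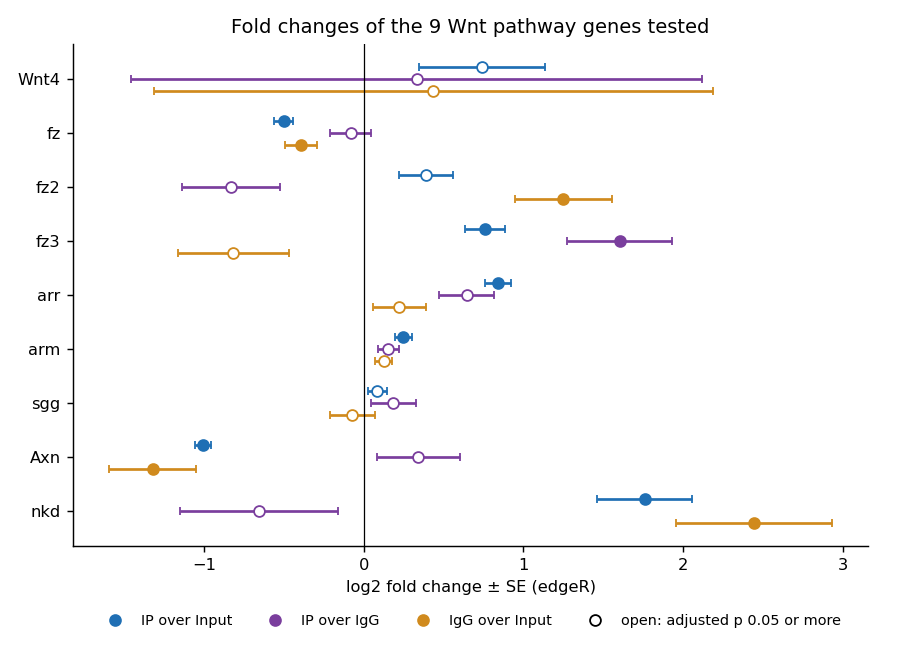
Log2 fold change ± SE from edgeR for the 9 genes tested, with IP over Input, IP over IgG and IgG over Input side by side; filled points have an adjusted p below 0.05 and n is 3 libraries per group. Filled points for IP over Input run from -1.01 for Axn to 1.76 for nkd, and fz3 has the only filled point for IP over IgG, at 1.60.

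In the cytoplasmic part of the pathway arm was slightly higher in IP than in Input, sgg was not called and Axn was lower in both pulldowns. Armadillo, the product of arm (FBgn0000117, X 1891401 to 1900646, minus strand), is both the transducer of the signal and a component of adherens junctions. Its level was 652.9, 648.4 and 618.9 CPM in the Input libraries, 716.4, 692.0 and 688.1 in the IgG libraries and 736.8, 766.0 and 784.9 in the IP libraries. The groups kept the order Input, IgG, IP without overlap, but the steps were small. In IP arm rose 1.188-fold over Input (log2 0.25, SE 0.05, adjusted p = 0.00219). IP over IgG was 0.15 (adjusted p = 0.179) and IgG over Input 0.12 (adjusted p = 0.143). Exon length correction turned the former to -0.11 and brought the latter to 0.49, where it was called (adjusted p = 0.00197). On the opposite strand 82 of the exonic bases of arm overlap mRpL16, a mitochondrial ribosomal protein gene, and whether strand was used in counting is not given in the sources used here.

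The kinase gene sgg (FBgn0003371, X 2633952 to 2679553, plus strand) encodes Shaggy, the fly GSK3, which phosphorylates Armadillo. Its level was 215.3, 216.8 and 216.6 CPM in the Input libraries, 223.3, 233.4 and 161.5 in the IgG libraries and 213.9, 229.4 and 247.2 in the IP libraries. Input was nearly constant, IgG replicate 3 was the lowest library, and all groups overlapped. No log2 fold change was called: IP over Input was 0.09 (adjusted p = 0.238), IP over IgG 0.19 (adjusted p = 0.482) and IgG over Input -0.07 (adjusted p = 0.767), which without IgG replicate 3 was 0.07. The merged exons of sgg, from 19 coding transcripts, span 12499 bases, longer than those of 98.7% of tested genes. With exon length correction IP over Input was -0.48 and called (edgeR adjusted p = 0.000543). That correction used the merged length, whereas the longest annotated sgg mRNA has 5004 bases. The corrected value therefore rests on a length that no annotated sgg mRNA has. The exons of sgg share 1470 bases with lncRNA:CR45197 on the same strand.

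Axin, the scaffold that holds Shaggy and Armadillo together, is encoded by Axn (FBgn0026597, 3R 30022842 to 30035311, plus strand). Its level was 164.7, 163.5 and 162.0 CPM in the Input libraries, 82.91, 75.1 and 38.92 in the IgG libraries and 83.58, 80.08 and 80.82 in the IP libraries. Input and IP were each tight and far apart, and IgG replicate 3 stood well below every other library. In IP Axn was 2.012-fold lower than in Input (log2 -1.01, SE 0.05, adjusted p = 1.89e-07), and in IgG it was 2.498-fold lower (log2 -1.32, SE 0.27, adjusted p = 0.0152). Without IgG replicate 3 the IgG over Input value was -1.05 (adjusted p = 0.00338), and without any 1 Input library the value was -1.33 to -1.31 but not called (adjusted p from 0.0608 to 0.0644), as calls over all genes went from 2364 to between 446 and 490 in those fits. IP over IgG was 0.34 (adjusted p = 0.476), and 0.07 without IgG replicate 3. On the opposite strand 374 exonic bases of Axn overlap ZIPIC and asRNA:CR44045.

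The feedback inhibitor nkd (FBgn0002945, 3L 19003741 to 19045449, minus strand) encodes Naked cuticle, which binds Dishevelled and is induced by Wingless signalling. Its level was 2.149, 2.332 and 1.653 CPM in the Input libraries, 13.34, 9.672 and 10.5 in the IgG libraries and 9.839, 5.088 and 5.91 in the IP libraries. Both pulldowns were above Input in every library, and IP replicate 1 was within the IgG range. In IP nkd rose 3.382-fold over Input (log2 1.76, SE 0.30, adjusted p = 0.0006), and in IgG 5.442-fold (log2 2.44, SE 0.49, adjusted p = 0.0149). Its IP over Input value lay at percentile 97.13 of all genes tested. IP over IgG was -0.66 (SE 0.49, adjusted p = 0.469). Without any 1 Input library the IgG over Input value was 2.31 to 2.55 but not called (adjusted p from 0.0699 to 0.0756). All 7 muscle markers tested were called higher in IgG against Input and 3 of them in IP against Input. Over all genes tested 10.3% and 28.5% were called higher in these comparisons. The medians of the muscle list were 4.0 and 1.88 (log2), and the part of these markers in the nkd values was not tested. In IgG replicates 1, 2 and 3 the muscle sum was 2391, 2773 and 422.3 CPM, and nkd was 13.34, 9.672 and 10.5 CPM. In IP replicates 1, 2 and 3 the muscle sum was 873.1, 359.4 and 120.5 CPM, and nkd was 9.839, 5.088 and 5.91 CPM. Without IgG replicate 3 the IgG over Input value of nkd was 2.48 (adjusted p = 0.0108).

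All 10 genes have merged exons longer than the median of 2093 bases over 8574 tested genes with a length, from 2855 bases in Wnt6 to 12499 in sgg. With exon length correction the 6 genes called between IP and Input kept their calls and directions. It added sgg, whose merged length exceeds that of every annotated sgg mRNA. Between IP and IgG the single call, that of fz3, was lost with the correction.

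The rest of the pathway was read from a list of 47 genes, of which 43 were in the files and 37 were tested. Between IP and Input 15 of the 37 were called higher and 8 lower, with a median log2 fold change of 0.16. Among all genes 59.2% were called, 28.5% higher and 30.8% lower. Ligand handling split: por, which encodes the acyltransferase that lipidates Wnts, was called higher, and wls, the carrier of Wnts to the cell surface, fell from 91.78 CPM in Input to 48.64 in IP (log2 -0.92, adjusted p = 2.33e-06). The ligand gene Wnt5 rose from 30.7 ± 0.987 CPM in Input to 49.76 ± 6.145 in IP (SD, n = 3; log2 0.69, edgeR adjusted p = 0.000171). Of 6 other receptors tested, otk (a kinase-like co-receptor at 0.8772 CPM in Input and 2.613 in IP, log2 1.57, adjusted p = 0.004), drl and dnt were called higher and fz4 lower. The genes por, Wnt5, drl, dnt and fz4 are named because they are few in their role, after their values were seen.

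Among the cytoplasmic and nuclear lists the called genes went both ways between IP and Input. Over all genes tested 28.5% were called higher and 30.8% lower there, so such a mix was common. Of 9 genes tested as cytoplasmic regulators 4 were called higher and 3 lower. That list also holds boca, the chaperone of Arrow, which was not called here. Among those called lower was CkIalpha, the kinase that primes Armadillo for Shaggy (log2 -0.65, edgeR adjusted p = 2.23e-05). Of 12 nuclear factors 5 were higher and 2 lower. The strongest rise in the nuclear group was that of nej, the CBP acetyltransferase and coactivator (log2 1.54, SE 0.07, adjusted p = 9.13e-08), and the strongest fall that of ebd2, a partner of Armadillo in the nucleus (log2 -0.87, adjusted p = 4.17e-05). The planar polarity gene pk had 1.184 CPM in Input and 3.847 in IP (log2 1.69, adjusted p = 0.00227), levels about as low as those of otk.

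Between IP and IgG 4 of the 37 were called, all higher in IP, with a list median of 0.22. Over all genes 7.96% were called, 4.77% higher and 3.20% lower. The gene nej was at 275.3, 394.6 and 804.2 CPM in the lysate, the control and the FLAG pulldown (IP over IgG log2 1.05, adjusted p = 0.00035). The Mediator kinase module genes kto and skd, which act with the nuclear complex, followed with log2 1.05 (SE 0.24, adjusted p = 0.0361) and 0.68 (SE 0.08, adjusted p = 0.00196). For skd the levels were 424.8, 688.0 and 1085 CPM in Input, IgG and IP. Apc, a scaffold of the destruction complex, was at 126.9, 168.2 and 250.7 CPM (IP over IgG log2 0.60, adjusted p = 0.0218), and is named as the remaining call. These 4 genes were also called higher in IP than in Input, as fz3 was. Unlike fz3, nej, skd and Apc were called higher in IgG than in Input as well (log2 0.52, 0.69 and 0.40). For kto IgG over Input was 0.18 and for fz3 -0.82, neither called. Over all genes exon length correction took the IP over IgG calls from 700 to 270. Its effect on these 4 genes is not given here.

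IgG differed from Input in 13 of the 37, with 6 higher and 7 lower and a median of -0.01. Over all genes 26.9% were called, 10.3% higher and 16.6% lower. The largest rises were those of boca, the chaperone of Arrow (log2 0.74, adjusted p = 0.021), skd (0.69, adjusted p = 0.00371) and the kinase gene Hipk (0.57, adjusted p = 0.0116). The largest falls were those of wls (-0.79, adjusted p = 0.0145), Vang, a membrane protein of planar polarity (-0.78, adjusted p = 0.0256), and Apc2, the second Apc gene (-0.63, adjusted p = 0.0125). Ror, a receptor kinase gene with 0.4112 CPM in Input, was at 0 in all 3 IgG libraries and was left out of that order because its mean over the libraries compared is below 1 CPM.

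**Figure D4:**
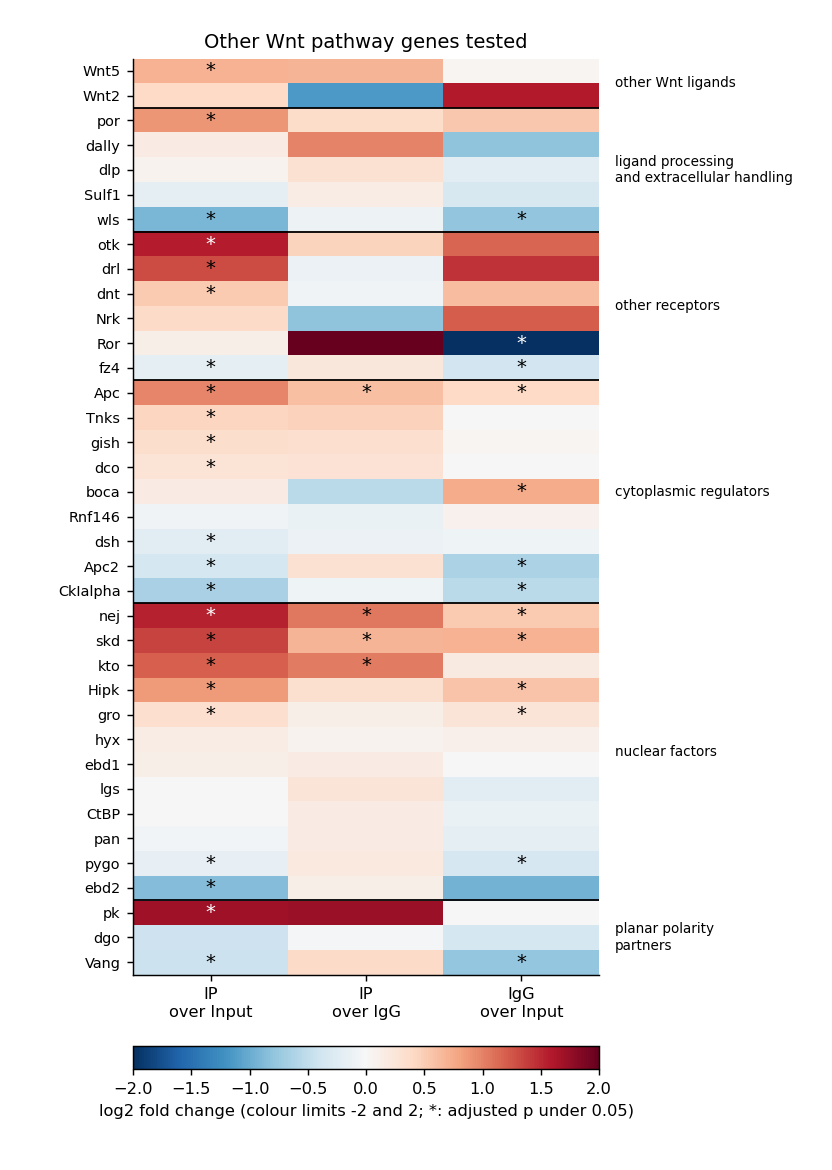
Log2 fold changes of the 37 other Wnt pathway genes tested, 1 row per gene grouped by role and 1 column per comparison, with colours limited at -2 and 2 and an asterisk at an adjusted p below 0.05. The middle column, IP over IgG, has 4 asterisks (Apc, nej, skd and kto), against 23 for IP over Input.

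For the tested members other than fz3 the gene with the most similar profile over the 9 libraries is given, as found by Pearson's r of log2(CPM + 0.5). These values describe 9 libraries that share the same group differences and depths. The closest gene to fz was wls (r = 0.989), so 2 Wnt pathway genes had near parallel profiles, with wls at 91.78, 53.3 and 48.64 CPM in Input, IgG and IP. For fz2 it was Lmpt (r = 0.990), at 29.71, 73.17 and 38.92 CPM. For Axn it was Prp6, a splicing factor gene (r = 0.995). For nkd it was TyrRS, a tRNA synthetase gene (r = 0.978), for arr CG13185 (0.986), for arm Naa15-16 (0.985), for sgg CASK (0.966) and for Wnt4 Mdr49 (0.989). Such likeness was common: between 34 genes (sgg) and 373 genes (fz) reached r above 0.9 with a member.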

How the data were processed

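For each of 9 libraries the authors deposited whole-number counts of reads for 17024 FlyBase gene IDs, without normalization. The submitters' processing notes name HISAT2 2.1.0, featureCounts 1.4.6 and dm6. The annotation release, strand setting and rule for multi-mapping reads are not given in the sources used here, so reads of overlapping genes may be shared. Symbols, positions and exon lengths came from Ensembl release 115 (16647 IDs named, 377 not), and start windows from RefSeq Release 6, where 99.83% of 29771 annotated start codons read ATG. Listed genes that the files do not hold are not analysed here.

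Each pair of groups was fitted with edgeR 4.0.16 (R 4.3.3; robust quasi-likelihood, two-sided) on its 6 libraries, with TMM factors computed over them and no covariate. Genes passing filterByExpr over 9 libraries (minimum count 10, smallest group 3) were tested (8789; 8235 were set aside), with Benjamini-Hochberg adjustment over all of them and a threshold of 0.05. The SE is the log2 fold change divided by the square root of F. Printed CPM use TMM factors over the 9 libraries. Intervals and floors of counts cover counting error only, because PCR copies carry no molecular identifiers.

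Same-numbered libraries share a replicate number in the titles. Deviations from group means correlated across genes at 0.273, 0.289 and 0.387 between same-numbered Input and IP libraries. The main fits did not use this pairing, so their p-values leave it out, and only the replicate block took it in. Between same-numbered IP and IgG libraries the correlations were 0.071, 0.036 and 0.193 for replicates 1, 2 and 3. Between IgG and Input they were 0.094, 0.09 and 0.187. Alternatives were DESeq2 1.42.0, other scalings and filters, all libraries in one fit, the block, an exon length correction (loess, span 0.3) and each library left out. The fits were tested on simulated counts. Members, lists and tests were chosen with earlier results of these data known. All members were named, and of the pathway list the 3 largest rises and falls per comparison among those called whose CPM averaged 1 or more over the libraries compared. The gene most like fz3 in profile is not reported here.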

Additional observations from a re-analysis of the deposited data

How the results depend on the processing

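Between IP and Input 6 members were called, 6 to 8 on leaving out 1 library, and 7 with the replicate block, which added fz2. Over all genes 5206 were called there and 2778 with all 9 libraries in one fit.

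Between IP and IgG, where 1 member (fz3) was called, DESeq2 called 2, library totals 3, a single fit of all libraries 2, the replicate block 2 (fz3 and arr), the exon length correction 0 and the block with that correction 1, which was fz2. Leaving out 1 library gave 0 to 2. Over all genes, 700 calls became 1376, 1193, 2014, 1264 and 270 under the first 5 of these, and 295 to 930 without 1 library. Members higher in IP than in both others, 1 in the report, were 2, 3, 2, 2, 0 and 0 in that order, and 0 to 2 without 1 library.

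Between IgG and Input 4 members were called, 5 each with DESeq2 (arm added), a filter of 1 count (Wnt6 added, although all IgG libraries are at 0) and a single fit of all libraries (fz3 added), 4 with length correction (arm in, fz out), 2 with the replicate block (fz2 and Axn), and 0 to 4 without 1 library (0 without any Input library). Over all genes 2364 calls became 446 to 3306. In both comparisons with IgG the labels share only a number, and same-numbered libraries correlated less than those of Input and IP. The block changed no other member call in these comparisons.

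Length correction used merged exons, which in sgg are longer than any annotated mRNA. Directions turned for sgg in IP over Input (-0.484 with length correction, -0.488 with the block added). In IP over IgG they turned for fz (0.104 with library totals), arm (-0.11 with length correction, with or without the block), sgg (-0.278 and -0.277), Axn (-0.0321) and Wnt4 (-0.254 to 1.08 without 1 library, lowest without IgG replicate 3). In IgG over Input they turned for arm (-0.000938 with library totals), sgg (-0.169 to 0.0729 without 1 library, highest without IgG replicate 3) and Wnt4 (-0.766 with the block, -0.424 with block and length correction, and -0.332 to 1.02 without 1 library, lowest without IgG replicate 1). The cause was not tested. Wnt6 had at most 8 counts in a library, too few to compare.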
